A study of Gossypium hirsutum with 6 samples.

Results

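The 161 leaf transcripts described here were lower by 8-fold or more after 8 h at 45 °C in a heat-tolerant cotton and stayed within 2-fold of control in a heat-sensitive one. They come from 6 leaf mRNA libraries of upland cotton, Gossypium hirsutum, made from seedlings of about 20 days. Nan Dan Ba Di Da Hua, labelled heat tolerant, and Earlistaple 7, labelled heat sensitive, each gave a control library at 28 °C and libraries after 4 h and 8 h at 45 °C. All seedlings shared 28 °C days, 22 °C nights and 14 h of light, and heat began about 6 h after light onset. The hour at which control leaves were taken is not given, so the length of heating and the time of day cannot be told apart. Each group is 1 library and the number of plants behind it is not given. No value therefore has a replicate error, no test or p-value is given, and a count of transcripts past a fold limit is a rule of size.

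Members were chosen from 421554 assembled transcripts by their RPKM (read number scaled to transcript length and library size) in 4 of the 6 libraries. A member had 20 RPKM or more in both controls, a mean of the controls below 200 RPKM, a tolerant ratio of 8 h to control of 1/8 or less, and a sensitive ratio between 1/2 and 2, each ratio taken after adding 1 RPKM. The controls' limits alone left 3632 transcripts, called control-matched below. Of these, 1091 (30%) met the tolerant limit and 1793 (49.4%) the sensitive window, and 161 met both. Over all transcripts that reached 1 RPKM in at least 1 library of the ratio (all compared, below), the shares were 1.5% and 73.2%. Because the control and 8 h values chose the members, their differences there are descriptions. The 4 h libraries were not used in the choice.

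Plants moved to damaging heat redirect transcription to chaperones and other protective genes through heat shock transcription factors, while transcripts for photosynthesis and growth commonly decline. The level of a transcript depends on both its synthesis and its decay, and sequencing of steady-state RNA does not separate them. In whole leaves, fewer cells of a type and less RNA per cell cannot be told apart either. Upland cotton is an allotetraploid with A and D subgenomes, so many genes exist as near-identical homoeologous copies whose reads are hard to assign. The files pair no gene name with the transcript identifiers, and the RefSeq table of 99454 genes holds 0 of these identifiers (assembly Gossypium_hirsutum_v2.1). The members are therefore described by their values, without gene functions, and the leaf label was not checked against marker genes.

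Read depth relative to the tolerant control was between 0.797 and 1.13 in the other 5 libraries, as recovered from the spacing of low values. The total number of reads is unknown. The libraries with the most transcripts at 1 RPKM or more were the sensitive 8 h and tolerant 4 h libraries, with 148293 and 147583, against 107290 in the tolerant control. The sensitive 4 h library had 119524 and the tolerant 8 h library 120293, so the genotype with more of them differed between 4 h and 8 h. RPKM is a share of a library, so such a spread of reads over more transcripts enters the ratios below, and its part in them was not tested.

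In unheated leaves the members stood at nearly the same level in both genotypes. Their lowest, median and highest values were 20.05, 38.17 and 149.07 RPKM in the tolerant control and 20.08, 37.47 and 151.78 RPKM in the sensitive control. The sensitive to tolerant ratio of RPKM had a median of 0.982 and ran from 0.439 to 1.96. The sensitive control was the higher for 73 members (45.3%), where 53.4% of control-matched transcripts and 61.6% of all compared were higher there. No member was 2-fold higher in the sensitive control and 2 were 2-fold lower, where 0.551% and 3.58% of control-matched transcripts were (3.23% and 5.28% of all compared). The same members were far apart after 8 h, as their selection required, with every one at least 2-fold higher in the sensitive library (46.3% of control-matched transcripts and 20% of all compared were). Tolerant values ran from 0 to 11.48 RPKM with a median of 2.28, and sensitive values from 11.49 to 96.32 RPKM with a median of 25.3. The 8 h ranges of the genotypes nearly touched, at 11.48 and 11.49 RPKM, and the choice itself pushed these values apart. In the controls and at 4 h the ranges overlapped. Of the 161 members, 25 were below 1 RPKM in the tolerant 8 h library and 2 were listed at 0. Among all 1091 control-matched transcripts at 1/8 or less in tolerant leaves, 314 were below 1 RPKM there and 19 were at 0. The 2 members at 0 had 20.72 and 20.08 RPKM in the tolerant control and 20.61 and 19.99 RPKM in the sensitive 8 h library.

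**Figure D1:**
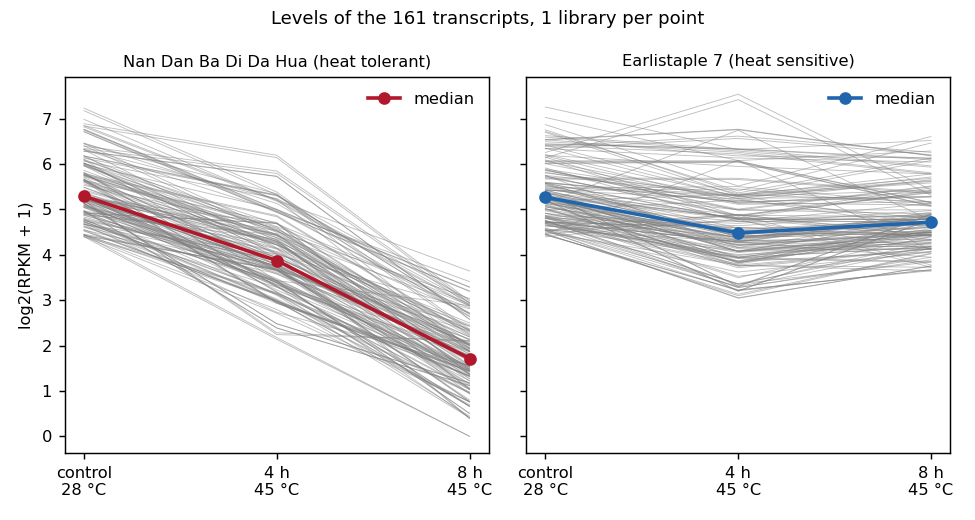
RPKM of the 161 members in the 3 libraries of each genotype, as log2(RPKM + 1), with each grey line a transcript and the coloured line the median. Tolerant medians go from 38.17 to 13.65 and 2.28 RPKM, and sensitive medians from 37.47 to 21.34 and 25.3 RPKM.

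As a share of all RPKM, the members together made up 0.929% of the tolerant control, 0.334% of the 4 h and 0.0556% of the 8 h library. In sensitive leaves the share was 0.878%, 0.624% and 0.586%. The median member of tolerant leaves retained 32.8% of its control RPKM after 4 h and 5.93% after 8 h, and the median member of sensitive leaves 56.3% and 66.5%. Retention within the sensitive window leaned to the lower side. At 8 h 5 members (3.11%) were above their sensitive control, the highest at 115% of it. Above it were 35.3% of the 1793 control-matched transcripts within the window, 24.7% of all control-matched transcripts and 63.5% of all compared.

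**Figure D2:**
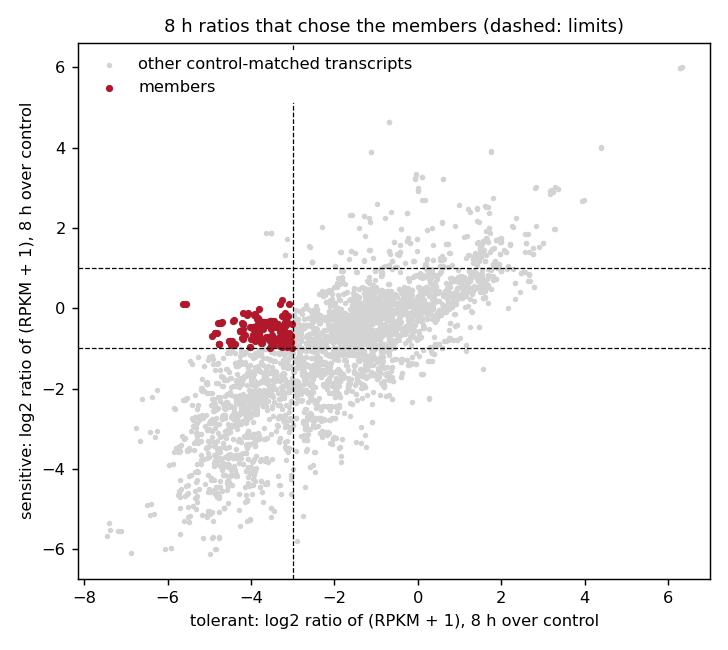
Log2 ratio of (RPKM + 1) at 8 h over control in the tolerant (x axis) and sensitive (y axis) genotype for 3632 control-matched transcripts, with the limits of the choice dashed. The 161 members (red) lie in the lower part of the sensitive window, with a median of -0.57 there and -3.57 in tolerant leaves.

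The members border on a larger set of transcripts lost in tolerant leaves. Of the 1091 control-matched transcripts at 1/8 or less in tolerant leaves, 923 were below 1/2 in sensitive leaves, 359 of which were at 1/8 or less there too, and 7 were above 2. The mirror choice, at 1/8 or less in sensitive leaves and within 2-fold in tolerant ones, held 0 transcripts. Its limits were met singly by 407 (11.2%; 0.477% of all compared) and 904 (24.9%; 52.2%) control-matched transcripts. The mirror choice held 1 after median-of-ratios scaling. Values just inside and outside the limits were close. The member nearest the tolerant limit went from 24.37 RPKM in the control to 2.13 RPKM at 8 h, and the nearest transcript beyond it from 53.73 to 5.86 RPKM. At the lower sensitive limit the nearest member went from 33.9 to 16.55 RPKM and the nearest outsider from 42.33 to 20.32 RPKM. Members reached down to 20.05 and 20.08 RPKM in the tolerant and sensitive controls, with the nearest outsiders at 19.12 and 19.93 RPKM. The highest mean of the controls among members was 139 RPKM against 204 RPKM outside, and the highest sensitive ratio 1.15 against 2.50 outside.

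The transcript with the highest mean of the controls, comp98769_c0_seq1, stood at 125.49 RPKM in unheated tolerant leaves, 35.7 RPKM after 4 h and 11.48 RPKM after 8 h. In sensitive leaves the same 3 levels were 151.78, 78.65 and 90.63 RPKM. Its tolerant 8 h value was the highest of any member and still 7.89-fold below the sensitive one. The next, of another component, went from 149.07 to 40.71 and 4.13 RPKM in tolerant leaves and from 106.75 to 40.1 and 69.09 RPKM in sensitive leaves. Its 4 h levels were nearly equal in both genotypes, and at 8 h they were 16.7-fold apart. The next 2 ran parallel to these, at 143.4, 39 and 3.97 RPKM and at 106.5, 30.1 and 9.62 RPKM in the tolerant libraries. Their sensitive values were 102.6, 38.54 and 66.43 RPKM and 129.28, 66.42 and 76.99 RPKM.

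On the log2(RPKM + 1) scale the deepest tolerant loss was that of comp129093_c0_seq1, which stood at 63.97, 15.09 and 0.32 RPKM in tolerant leaves (control, 4 h, 8 h) and at 28.09, 24.82 and 30.43 RPKM in sensitive leaves. Of its tolerant control RPKM 0.500% was left at 8 h, where the 2 members listed at 0 had none left, while the sensitive level was 108% of control. A parallel transcript stood at 61.1, 14.24 and 0.31 RPKM and at 27.08, 23.92 and 28.97 RPKM. These are the 2 members whose controls were at least 2-fold apart. The next deepest on that scale measured 62.11, 19.14 and 1.06 RPKM, with 1.71% left, against 88.92, 75.47 and 54.9 RPKM. Here the genotypes were already 3.94-fold apart at 4 h.

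At 4 h, in the libraries that the choice did not use, the members were already higher in sensitive leaves. Tolerant values ran from 3.4 to 72.11 RPKM with a median of 13.65, and sensitive values from 7.24 to 184.65 RPKM with a median of 21.34. The sensitive level was above the tolerant one for 147 of 161 members, a share of 91.3% against 65.5% of control-matched transcripts and 34.2% of all compared. At least 2-fold higher were 42 members (26.1%), where 9.55% of control-matched transcripts and 3.2% of all compared were. None was 2-fold lower (1.84% and 7.78%). The median log2 ratio of (RPKM + 1) was 0.68 in members, 0.22 in control-matched transcripts and -0.20 over all compared. Scaling moved these ratios upward, by 0.36 (median-of-ratios) and 0.33 (upper-quartile) in log2 units. It then gave 82 and 78 members at least 2-fold higher, or 50.9% and 48.4%, beside 21.7% and 20.3% of the control-matched transcripts.

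**Figure D3:**
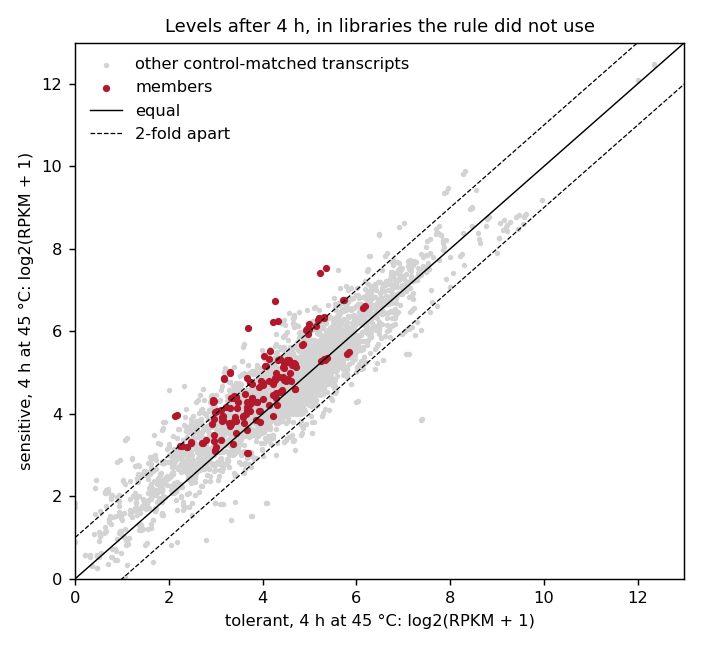
Levels after 4 h in the tolerant (x axis) and sensitive (y axis) genotype as log2(RPKM + 1), for members (red) and other control-matched transcripts (grey). Most members (147 of 161) lie above the line of equal levels, and 42 lie on or above the upper 2-fold line.

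That 4 h difference was similar in size in other transcripts lost in tolerant leaves. The 930 control-matched transcripts at 1/8 or less in tolerant leaves at 8 h that are no members had a median log2 ratio of 0.62 at 4 h, and 25.4% of them were at least 2-fold higher in sensitive leaves. The 2541 remaining control-matched transcripts had a median of 0.07, with 2.72% at least 2-fold higher. With 1 library a group, none of these differences was tested.

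**Figure D4:**
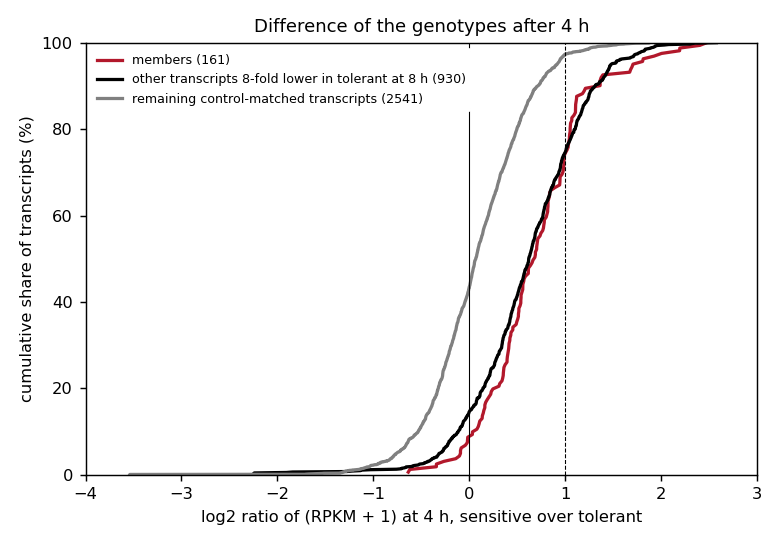
Cumulative share of transcripts by the log2 ratio of (RPKM + 1) at 4 h, sensitive over tolerant, for members, other transcripts at 1/8 or less in tolerant leaves at 8 h, and the remaining control-matched transcripts. The curves of the first 2 sets run together, with medians of 0.68 and 0.62, to the right of the last at 0.07.

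The ends of the range at 4 h show how members differ among themselves. The most divergent transcript had 42.1, 18.28 and 2.26 RPKM in tolerant leaves (control, 4 h, 8 h) and 34.33, 106.08 and 26.13 RPKM in sensitive leaves. It was 5.80-fold higher in sensitive leaves at 4 h, where it peaked at 309% of control. The next 2 had the same shape, at 26.9, 11.84 and 1.24 RPKM against 20.97, 66.84 and 16.23 RPKM, and at 86, 39.6 and 2.86 RPKM against 75.29, 184.65 and 42.13 RPKM. At the other end, a transcript at 20.51, 11.81 and 1.16 RPKM in tolerant leaves measured 22.11, 7.24 and 12.49 RPKM in sensitive ones. It was lower in sensitive leaves at 4 h, at 0.613 of the tolerant level, and 10.8-fold higher at 8 h. A parallel transcript measured 20.42, 11.74 and 1.21 RPKM against 22.24, 7.29 and 12.46 RPKM. The next lowest stood at 82.94, 56.46 and 6.66 RPKM against 43.18, 44.28 and 33.79 RPKM, so its order between the genotypes turned between 4 h and 8 h.

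In tolerant leaves all 161 members were lower at 4 h than in the control and lower again at 8 h. Above control at 4 h were 23.1% of control-matched transcripts and 67.4% of all compared, and above the 4 h level at 8 h 20.6% and 37.8%. At least 2-fold higher over these intervals were 0 members, against 4.71% and 20.7% at 4 h and 5.09% and 10.9% between 4 h and 8 h. The 4 h values share the control with the ratio that chose the members, and the 8 h values were used in the choice. By 4 h, 128 members (79.5%) were at least 2-fold lower, against 47.1% of control-matched transcripts and 9.15% of all compared, with a median log2 ratio of -1.51 against -0.91 in control-matched transcripts and 0.42 over all. None of them was 8-fold lower at 4 h, where 12% of control-matched transcripts and 0.53% of all compared were, although scaling placed 14 (median-of-ratios) and 10 (upper-quartile) there. Among the 930 other transcripts lost by 8 h the fall at 4 h was larger, with a median log2 ratio of -2.82. At 4 h 0 of the 930 were above control, 903 (97.1%) were at least 2-fold lower and 420 (45.2%) were 8-fold lower already. Between 4 h and 8 h, 158 members were at least 2-fold lower again, which 63.4% of the 930, 42.8% of control-matched transcripts and 16.7% of all compared were. The members' median log2 ratio over that interval was -2.21, larger in size than over the first 4 h. Under both scalings the order turned, with -2.10 over the first 4 h and -1.64 after it (median-of-ratios) and -2.00 and -1.94 (upper-quartile).

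In sensitive leaves 106 members had their lowest RPKM at 4 h, a number that scaling lowered to 72 (median-of-ratios) and 65 (upper-quartile). At 4 h there were 53 (32.9%) at least 2-fold lower than control, against 39.7% of control-matched transcripts and 10.8% of all compared, and 4 (2.48%) at least 2-fold higher, against 7.76% and 12.9%. Above control were 19 members, against 27.1% and 52.7%, and 8-fold lower were 0, against 9.53% and 0.415%. The median log2 ratio was -0.80, near the -0.71 of control-matched transcripts and below the 0.06 over all. Of the 1793 within the sensitive window at 8 h, 8.53% were at least 2-fold lower at 4 h, a smaller share than among members. Of these 1793, 4.63% were at least 2-fold higher, 39% were above control and 0 were 8-fold lower, with a median of -0.19. The 106 members lowest at 4 h were 65.8% of all members, against 34.3% of control-matched transcripts and 41% of the 1793 within the sensitive window. The control and 8 h values were used in the choice, which set a lower limit on the 8 h value. The 4 h value lay between a higher control and a lower 8 h value for 34 members (21.1%, against 38.6% of control-matched transcripts) and was the highest for 19 (11.8% against 18.8%). Among the 1793 within the window these shares were 19.8% and 29.8%. From 4 h to 8 h 106 members went up (42.6% of control-matched transcripts, 50.3% of those within the window and 63.4% of all compared did). Over that interval 6 members were at least 2-fold higher (3.39% of control-matched transcripts and 8.88% of all compared) and 6 at least 2-fold lower (8.81% and 2.22%). The median log2 ratio was 0.23, and its sign turned with scaling, to -0.04 after median-of-ratios and -0.08 after upper-quartile scaling. Under these scalings 698 and 607 of the 3632 control-matched transcripts were lowest at 4 h.

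Crossing the 4 h ratios of both genotypes, as deposited, gave 5 occupied classes. The largest held 76 members (47.2%, against 10.5% of control-matched transcripts), between 1/8 and 1/2 of control in tolerant leaves and within 2-fold in sensitive ones. Its 4 h medians were 14.3 and 25.2 RPKM. Another 48 (29.8%, against 24.2%) were between 1/8 and 1/2 in tolerant leaves and below 1/2 in sensitive ones. Their sensitive median went from 36.5 RPKM to 13.4 RPKM at 4 h and 21.8 RPKM at 8 h, while their tolerant median went on from 9.77 to 2.16 RPKM. A further 28 (17.4%, against 42%) were above 1/2 in tolerant leaves and within 2-fold in sensitive ones. Their tolerant medians were 37.6, 24.8 and 3 RPKM, so in the deposited values most of their loss lay between 4 h and 8 h. That class depends on scaling. Of the 161 members, 159 (median-of-ratios) and 158 (upper-quartile) were then at least 2-fold lower in tolerant leaves at 4 h, against 128 as deposited. The last 2 classes held 5 members (3.11%, against 3.61%) below 1/2 at 4 h in sensitive leaves alone and 4 (2.48%, against 0.496%) above 2-fold there. Across members the 4 h log2 ratios of the genotypes, which share no library, had a Pearson's r of 0.519 and a Spearman's rho of 0.525 (n = 161 transcripts). Over the 3632 control-matched transcripts r was 0.890 (rho = 0.874). Members span a narrower range of ratios, and transcripts with parallel values are not independent points.

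Many members repeat each other. They lie in 140 components, the assembler's groups of related transcripts. Of 159 members above 0 in every library, 70 had another transcript with proportional values over the 6 libraries (a distance of at most 0.02 on centred natural logarithms). For 67 the partner lay in another component. The 35 pairs of members so formed kept their ratio within 1.77% over the libraries, and 4 pairs were identical to the last decimal in all 6. Merging such partners leaves 126 profiles, and 107 at a distance of 0.05. Leaving out the tolerant 8 h library, whose low values carry the largest rounding, leaves 117. The 4 transcripts with the highest control levels above form 2 such pairs. One transcript per component or profile gave a median log2 ratio of 0.67 and 0.66 at 4 h, sensitive over tolerant, close to the 0.68 of all members. How reads were assigned between partners is not given in the sources used here, so the number of loci behind the 161 transcripts is uncertain.

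Transcripts assembled with the members shared the direction of the tolerant loss but mostly not its size. Of the 140 components, 93 held a single transcript. The other 47 added 224 transcripts that are no members, and 102 of these, in 30 components, had 5 RPKM or more in both controls. At 8 h 20 of the 102 were at least 8-fold lower than control in tolerant leaves, 77 between 2-fold and 8-fold lower, 5 within 2-fold and 0 higher. Over the 19463 transcripts of all other components at that level the shares were 10.8%, 42.2%, 38.3% and 8.64%, against 19.6%, 75.5%, 4.9% and 0% here. In sensitive leaves 2 were at least 8-fold lower (1.96%, against 4.06% in other components), 53 between 2-fold and 8-fold lower (52% against 22.5%) and 47 within 2-fold (46.1% against 65.2%). Their median log2 ratios were -2.24 (tolerant) and -1.12 (sensitive), against -1.11 and -0.31 in other components. A single component supplied 28 of the 102, and without it the medians were -2.45 and -0.66. In 11 cases the other transcript showed the members' own 8 h pattern and missed only a limit on the controls.

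**Figure D5:**
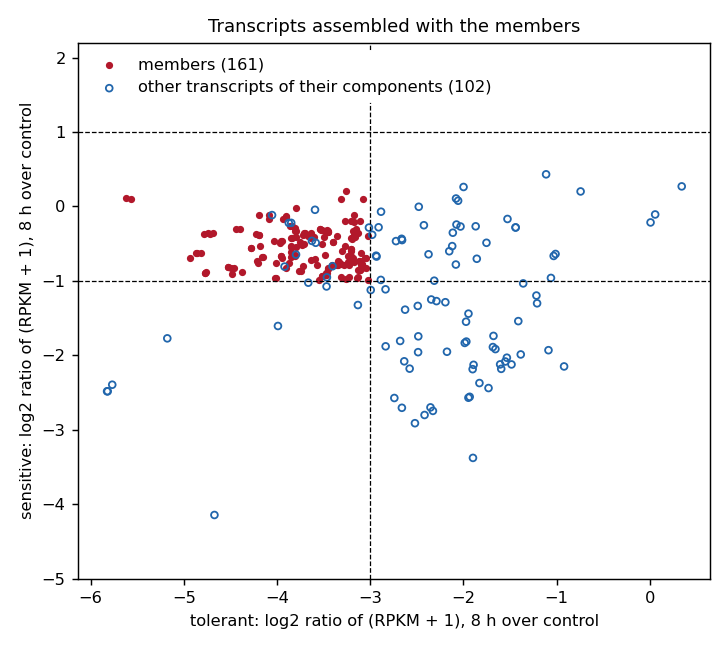
Log2 ratio of (RPKM + 1) at 8 h over control in the tolerant (x axis) and sensitive (y axis) genotype, for members (red) and for 102 other transcripts of the same components at 5 RPKM or more in both controls (blue circles). Of the circles, 20 lie at or left of the 8-fold limit in tolerant leaves, and 47 lie inside the 2-fold window of sensitive leaves.

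A sum over a component of 1 transcript is the member itself, so sums are given for the 47 components with 2 or more transcripts, and these too hold the members that the rule chose. At 8 h 32 of the 47 sums were at least 8-fold lower than control in tolerant leaves, 14 between 2-fold and 8-fold lower and 1 within 2-fold. In sensitive leaves 39 sums were within 2-fold and 8 were 2-fold lower. Members held under 50% of the tolerant control sum in only 17 of the 47 components, so most sums largely repeat the chosen values. Shares over the sums of other components are not given here. The exception in tolerant leaves was a component whose summed RPKM went from 62.6 to 36.9. Its member went from 24.83 to 6.61 and 1.94 RPKM in tolerant leaves and from 24.38 to 12.58 and 12.22 RPKM in sensitive leaves, while another of its transcripts measured 20.9, 35.23 and 26.78 RPKM and 23.63, 38.59 and 28.7 RPKM. That other transcript was higher at 8 h than in the control of both genotypes, while one more had 14.75, 6.14 and 3.35 RPKM in tolerant leaves and 14.21, 10.78 and 8.35 RPKM in sensitive ones. The component with the most members held 4, all with the same order of levels. Its tolerant controls ran from 24.47 to 39.65 RPKM with 1.59 to 1.81 RPKM left at 8 h, and its sensitive values ran from 27.85 to 42.35 RPKM in the control and from 18.07 to 28.87 RPKM at 8 h.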

How the data were processed

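RNA of cotton leaves was sequenced on an Illumina HiSeq instrument, per the design text, in 6 libraries grouped by the genotype and treatment in their titles. The authors deposited 1 RPKM value per transcript and library, to 2 decimals. Which programs assembled, aligned and counted reads, and whether strand was used, is not given in the sources used here. No column of another series was used. Members were selected in Python 3.11.15 with pandas 2.3.3 and NumPy 2.4.6. The members, and the limits and lists used here, were chosen with earlier results of these data known. Ratios are log2 of (RPKM + 1), a scale that understates changes of low transcripts. Folds of single transcripts are plain ratios of RPKM. Shares of all compared take transcripts that reach 1 RPKM in at least 1 library of the ratio. Relative depth came from the most frequent ratio between libraries of values from 0.2 to 0.6 RPKM, where steps of 1 read recur. The code of the selection was checked on simulated data with planted members, which tests the code and not the members found here. Transcripts described singly were the 4 highest in the controls, the 3 with the deepest tolerant loss on the log2 scale, the 3 highest and 3 lowest in sensitive over tolerant level at 4 h, those next to each limit, and the component with the most members. The component with a retained form was chosen after its values were seen. Alternatives were another pseudocount, median-of-ratios and upper-quartile scaling, other limits and merged transcripts.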

Additional observations from a re-analysis of the deposited data

Results flagged for a closer look

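At 4 h, 19 members were lower than control in tolerant leaves and higher than control in sensitive leaves, so the 2 responses had opposite signs. That is 11.8% of the members, beside 9.25% of control-matched transcripts and 7.34% of transcripts reaching 1 RPKM in each genotype. Every member was below control in tolerant leaves at 4 h, so this number is that of members above control in sensitive leaves. Above control there were 27.1% of control-matched transcripts, 39% of the 1793 within the sensitive window and 52.7% of all compared, larger shares than among members. After median-of-ratios and upper-quartile scaling the number was 15. Of the 19, 4 were at least 2-fold apart from control in each direction, beside 0.496% of control-matched transcripts (18 of 3632) and 0.539% of all compared. They are the 3 transcripts most divergent at 4 h and a partner proportional to the third of them, at 79.18, 36.43 and 2.63 RPKM in tolerant leaves and 69.27, 169.91 and 38.73 RPKM in sensitive leaves. The first 2 of the 3 also had a similar shape, so the number of separate loci among the 4 is uncertain. With 1 library a group, the difference between the genotypes was not tested.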

How the results depend on the processing

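Changing the limits changed how many transcripts qualified, from 161 to 38 at a tolerant limit of 1/16, 413 at 1/4, 82 with a sensitive window of 2/3 to 3/2, 300 with a control minimum of 10 RPKM and 442 with none. Median-of-ratios scaling gave 107 (90 of them among the 161), upper-quartile scaling 132 (84 shared), a pseudocount of 0.1 RPKM 200 (157 shared), and the mean of the controls as baseline 157 (142 shared). Those 2 scalings moved log2 RPKM ratios of sensitive 8 h over control down by 0.37 and 0.41, towards the lower limit of the window. Ratios of sensitive over tolerant at 8 h moved down by 0.65 and 0.32. Members under all 3 scalings numbered 84, of which 26 were at least 2-fold higher in sensitive leaves at 4 h, with a median log2 ratio of 0.71. Merging at a distance of 0.05 gave 107. The mirror choice gave 1 with median-of-ratios scaling and 0 with the other settings tried. With members held fixed, median-of-ratios and upper-quartile scaling gave median log2 ratios of 1.01 and 0.98 for sensitive over tolerant at 4 h (82 and 78 members 2-fold higher), -2.10 and -2.00 for tolerant 4 h over control, -1.64 and -1.94 for tolerant 8 h over 4 h, and -0.20 and -0.13 for the sensitive over the tolerant control. For sensitive 8 h over 4 h they gave -0.039 and -0.083, the reverse of the 0.23 as deposited, with 10 members 2-fold lower under each. At 4 h 14 and 10 members were 8-fold lower in tolerant leaves, and 65 members were lowest at 4 h in sensitive leaves under upper-quartile scaling (698 and 607 control-matched transcripts). A pseudocount of 0.1 RPKM gave -2.63 for tolerant 8 h over 4 h. With it 40 of the 102 other transcripts of the components were 8-fold lower in tolerant leaves at 8 h, against 20 as reported. Taking 1 transcript per component gave 11 of 30. The cause of these changes was not tested. No paired analysis was possible because each group holds 1 library. Depth limits the lowest tolerant 8 h values, whose number of reads is unknown.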

Other observations

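Beside the members, 7 control-matched transcripts of 5 components met the tolerant limit at 8 h but were more than 2-fold above control in sensitive leaves. They were chosen after their values were seen. Of these, 4 transcripts of 2 components went from 41.8 to 65.42 RPKM in the tolerant control down to 2.42 to 4.79 RPKM at 8 h, while in sensitive leaves they went from 45 to 64.41 RPKM up to 168.7 to 237.42 RPKM. At 8 h they were 49.6-fold to 69.7-fold higher in sensitive leaves, while the tolerant to sensitive ratio of their controls ran from 0.929 to 1.02. At 4 h their tolerant values were 39.85 to 46.42 RPKM and their sensitive values 62.81 to 93.2 RPKM. One more transcript had 164.03, 92.51 and 17.61 RPKM in tolerant leaves and 127.83, 132.7 and 422.86 RPKM in sensitive leaves (control, 4 h, 8 h). The other 2 started 6.16-fold higher in the tolerant control, at 280.15 and 298.96 RPKM, and ended 3.86-fold lower there at 8 h.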
